A study of Sus scrofa with 40 samples.

Results

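The genes described here are those whose symbols mark them as mitochondrial ribosomal proteins, MRPL followed by a number for the large subunit and MRPS followed by a number, with or without a final letter, for the small subunit. The symbol rule found 69 of the 38794 named rows of the deposited count tables, 43 MRPL genes and 26 MRPS genes, and each of the 69 was in both tables. The samples were metaphase II oocytes of the pig (Sus scrofa), mature oocytes that await fertilisation. The animals were commercial hybrids (Large White, Duroc and Berkshire), and the oocytes were classed as mtDNA-deficient or mtDNA-normal. There were 5 deficient and 6 normal libraries of pooled oocytes, although the series text gives 5 pools per group, and 14 deficient and 15 normal libraries of single oocytes.

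RNA of the pools was extracted on Picopure columns and amplified by single-primer isothermal amplification. RNA of single oocytes was extracted in the tube and prepared with the Nugen SoLo kit, which had primers to deplete unwanted pig transcripts. All libraries were sequenced as 100 bp paired-end reads. The titles of the single oocytes carry the word BCBneg for each deficient and BCBpos for each normal oocyte. Those of the pools carry neg and pos in the same way, so the state and this label cannot be told apart. The labels do not say how many oocytes formed a pool, what the numbers and letters of the titles stand for, or whether libraries of a group came from separate animals. The p-values below therefore measure the spread between these libraries, which may be technical, and in pools fewer cells of a kind and less RNA per cell cannot be told apart.

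The mitochondrial ribosome translates the few mRNAs that mtDNA encodes, which specify core subunits of the respiratory chain and ATP synthase. Its RNAs come from mtDNA, whereas its proteins are encoded in the nucleus, made in the cytosol and imported. Some of these proteins have counterparts in bacterial ribosomes and others belong to the mitochondrial ribosome alone. An oocyte carries a large store of mitochondria and maternal mRNA into the embryo.

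Levels are given as CPM, the field's usual scaling of a gene's count to the total of all named rows of a library. It is not divided by transcript length, so CPM of different genes are given as shares of the counts and not as transcript numbers. Of the 68 genes with an entry in RefSeq's Sscrofa11.1 annotation, 23 overlap another gene, among them MRPL3, MRPL47, MRPS22, MRPS27 and MRPS30. The strand setting of the counts is not given in the sources used here, so reads of overlapping genes cannot be told apart. Pools held 14480546 to 29538982 counts and single oocytes 706929 to 3067523. Of the counts of a single oocyte, 51.4% to 78.1% fell on LOC102158401 and the 18S ribosomal RNA gene RN18S, against at most 1.33% in a pool, which lowers the CPM of every other gene in single oocytes. All 10 oocyte markers examined, among them GDF9 and BMP15, averaged at least 10 CPM in every group. Of 19 cumulus and granulosa cell markers with a row, the summed level was 98.4 to 205 CPM in deficient pools and 130 to 198 CPM in normal pools, and 31.2 to 83.9 and 14.7 to 63.2 CPM in deficient and normal single oocytes. Of these 19, 11 to 14 had a count in a group and 2 or 3 averaged at least 10 CPM there. AMH and AMHR2 were at 0 in all 4 groups. The median of the summed level was 133 and 152 CPM in deficient and normal pools, and 48.4 and 38.1 CPM in deficient and normal single oocytes. Against this order, CYP19A1, FSHR and CYP11A1 reached 10.9, 9.27 and 7.07 CPM in their highest single oocyte. Their highest pool stood at 0.0391, 1.29 and 0.313 CPM. These examples do not stand for the whole list of 19. The part of cumulus and granulosa cells in the results below was not tested.

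Nearly all the genes of both subunits had counts. A count was found for 67 of the 69, comprising 41 MRPL genes and all 26 MRPS genes, and MRPL27 and MRPL34 had 0 counts in each of the 40 libraries. Among pools, 50 genes (30 MRPL and 20 MRPS) had a count in every library, and a pool held counts for 54 to 65 of the 69. Among single oocytes, 21 genes (12 MRPL and 9 MRPS) had a count in all 29, 37 had one in 15 to 28 and 9 in 1 to 14. One oocyte held counts for 42 to 61 of the 69. The number rose with the counts left outside LOC102158401 and RN18S (r = 0.69 over the 29 oocytes, a description of libraries that differ in depth). Since 24 genes averaged under 5 counts per oocyte, a 0 in a single oocyte marks a gene not detected at that depth.

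**Figure D1:**
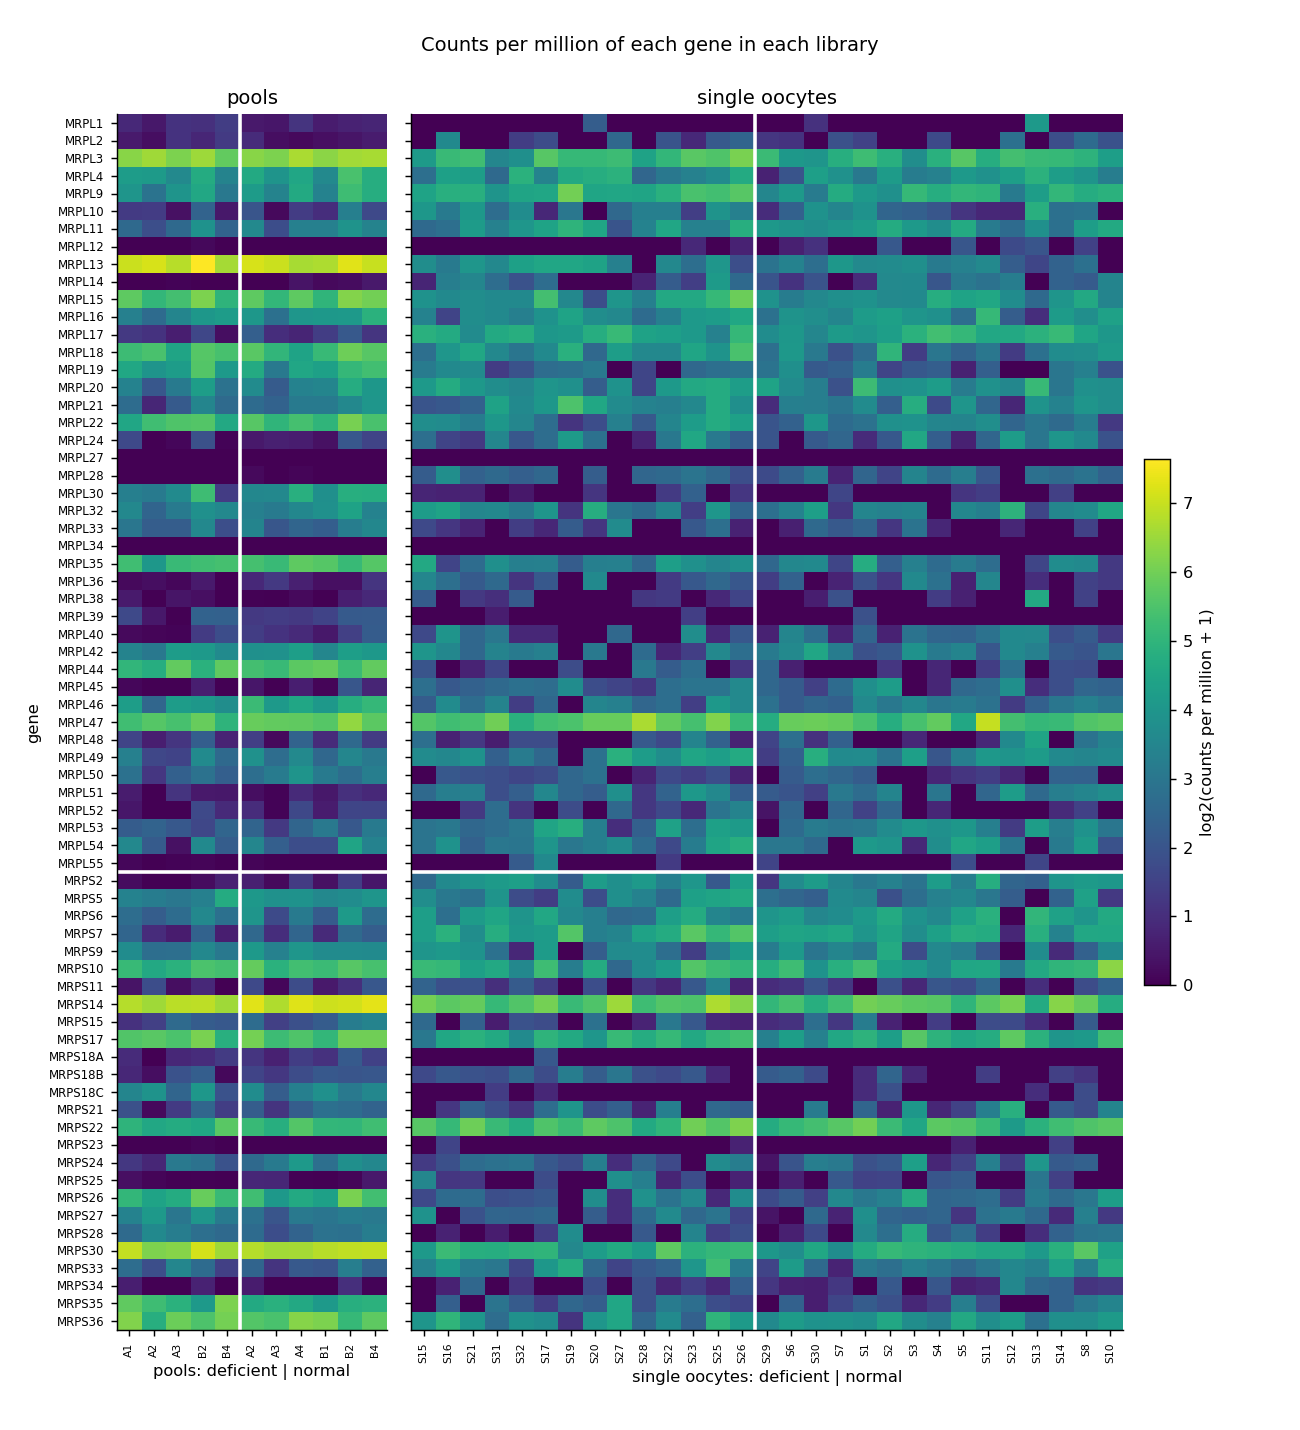
CPM of the 69 genes (rows, MRPL above and MRPS below the white line) in the 11 pools and 29 single oocytes (columns, deficient left and normal right of the white line), coloured as log2(CPM + 1). MRPL27 and MRPL34 are dark throughout, and MRPL13, MRPS14 and MRPS30 are brightest in the pools.

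A few genes held most of the counts, and the leading genes differed between the library types. In pools 8 of the genes made up 50% of the summed CPM, and in single oocytes 12 did. MRPL13, a core protein of the large subunit with a bacterial counterpart, averaged 131 ± 29.9 CPM over pools (SD, n = 11) and took 10.7% of the summed CPM. It was followed by MRPS14, a protein of the small subunit's head, at 124 ± 24.4 CPM and by MRPS30 at 105 ± 21 CPM. MRPS30 sits in the large subunit in spite of its symbol, as does MRPS18A. MRPL3 (82.2 ± 14.6 CPM) and MRPL47 (51.4 ± 13.5 CPM), both with bacterial counterparts, and MRPS36 (53.6 ± 16.2 CPM) completed the leading genes of the pools. MRPS36 is now known as a component of the alpha-ketoglutarate dehydrogenase complex rather than of the ribosome.

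In single oocytes MRPS14 (51.2 ± 19 CPM, SD, n = 29) and MRPL47 (49.6 ± 21.6 CPM) came first. They were followed by MRPS22 (41.4 ± 13.5 CPM), a small subunit protein mutated in a human mitochondrial disease, MRPL3 (31.5 ± 13.4 CPM), MRPS10 (26 ± 15 CPM), MRPS30 (25.9 ± 9.97 CPM) and MRPL9 (25.7 ± 12.2 CPM). MRPL13 stood at only 10.02 ± 6.10 CPM there, with a count in 27 of the 29 oocytes. Over the 69 genes, mean CPM in pools and in single oocytes had a Spearman rho of 0.65, a description over genes of 2 sets of libraries from different kits.

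At the low end were genes with a place of their own in the ribosome. MRPL12, a stalk protein that also binds the mitochondrial RNA polymerase, had 3 counts in 1 of the 11 pools and 24 counts over 9 of the 29 oocytes. Those were 2 of the 14 deficient and 7 of the 15 normal oocytes. MRPL12 was too low to be tested. Its partner in the stalk region, MRPL11, had a count in every library, with means of 7.87 ± 4.21 CPM over pools and 14.9 ± 7.23 CPM over single oocytes. MRPS18A had 350 counts over the pools but 4 counts in 1 single oocyte. MRPL1, a mobile protein near the exit of used tRNA, had 215 counts over the pools and 21 over the single oocytes, of which 16 fell in 1 normal oocyte.

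The summed level of each subunit differed less between the states than between libraries of a state. For MRPL genes the deficient pools stood at 608, 535, 564, 881 and 508 CPM (pools A1, A2, A3, B2 and B4 by title). The normal pools ran from 543 through a median of 730 to 961 CPM. The ranges overlapped over most of their length, with deficient pool B2 alone among the higher normal pools. The means were 619 ± 151 CPM (SD, n = 5) and 735 ± 154 CPM (SD, n = 6). For MRPS genes they were 520 ± 78.2 and 578 ± 85.9 CPM. The summed CPM of all 69 genes was higher where more genes were detected (r = 0.89 over 11 pools, as a description). That number was 16574 ± 1666 in deficient and 17938 ± 1556 in normal pools.

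In single oocytes the order of the means was the other way round and the ranges again overlapped. MRPL genes summed to 299 to 585 CPM in deficient oocytes, with a median of 381, and to 228 to 450 CPM in normal oocytes, with a median of 351. The means were 404 ± 82.2 CPM (SD, n = 14) and 355 ± 53.3 CPM (SD, n = 15), and those of MRPS genes 315 ± 65.8 and 290 ± 52.3 CPM. The 2 dominant rows took 62.4% ± 6.43 of the counts in deficient and 67.2% ± 4.99 in normal oocytes. Without them the means of the MRPL genes were 1075 and 1087 CPM and those of the MRPS genes 838 and 885 CPM, so the order of the states turned.

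**Figure D2:**
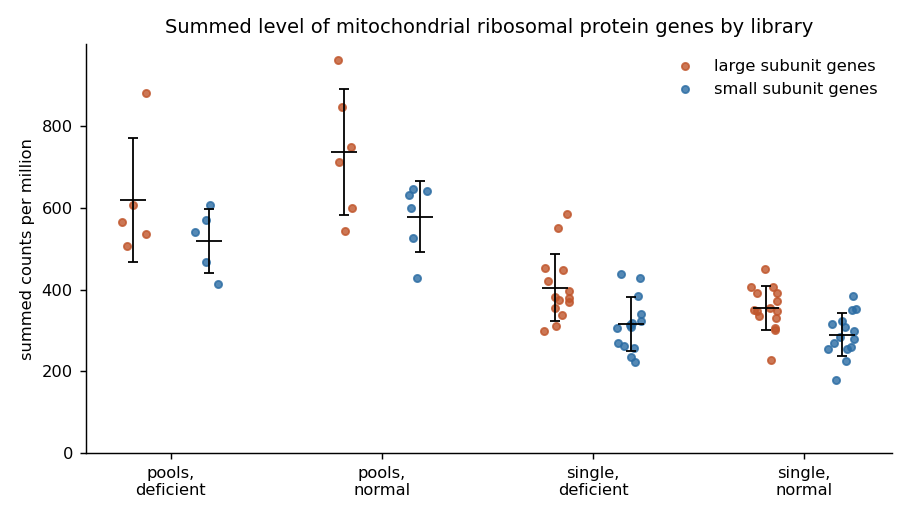
Summed CPM (y axis) of the 43 MRPL genes and the 26 MRPS genes, 1 point per library, in the 4 groups, with the mean and SD in black. The states overlap in both library types, and pools lie above single oocytes, whose CPM are lowered by LOC102158401 and RN18S.

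The balance of the 2 subunits differed between the 4 groups by less than its SD over deficient pools. The summed CPM of MRPS genes divided by that of MRPL genes was 0.859 ± 0.146 in deficient pools, 0.796 ± 0.075 in normal pools, 0.782 ± 0.081 in deficient oocytes and 0.822 ± 0.126 in normal oocytes (SD over libraries). Within a library type the large and small sums moved together (r = 0.82 over 11 pools and 0.76 over 29 oocytes, as a description of sums that share a library's total). With MRPS30 and MRPS18A counted in the large subunit, where they sit, the sum of the other MRPS genes was 419 CPM for deficient and 468 CPM for normal pools. MRPS36 was still counted in that sum.

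No gene of either subunit passed the test between deficient and normal pools. The test was edgeR's quasi-likelihood test with Benjamini-Hochberg adjustment over all genes tested and a threshold of 0.05. None of the 57 genes that passed the count filter (35 MRPL and 22 MRPS) was called, against 0% of all 13540 genes tested, and none was called by DESeq2 or limma-voom either. At an unadjusted p under 0.05 there were 4 of the 57, 2 higher and 2 lower, against 5.36% of all genes tested. The CPM of the 2 states did not overlap for 0 of the 57 genes and for 0.598% of all genes tested. That share is too small for 57 genes to show a difference from it.

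Without a call for any gene, the fitted differences lay more often on the lower side in deficient pools. The fitted value was below 0 for 41 of the 57 genes (71.9%), against 50.2% of all genes tested. The median log2 difference, deficient minus normal, was -0.27 for the 35 MRPL genes and -0.13 for the 22 MRPS genes, with -0.0019 for all genes. Leaving out deficient pool B2 gave -0.44 and -0.22, and leaving out normal pool B2 gave -0.14 for MRPL genes. For MRPS genes the median was -0.08 without deficient A3, -0.09 without normal A2 and -0.21 without deficient B4. With the number of genes detected as a covariate, the medians were -0.12 and -0.06, and 35 of 62 genes (56.5%) lay below 0 against 47.7% of all genes tested.

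The fitted differences were spread over the kinds of protein. Of the MRPL genes, 17 of 23 with a bacterial counterpart and 10 of 12 without one lay below 0, with medians of -0.26 and -0.31. Of the MRPS genes, 10 of 12 with a bacterial counterpart lay below 0 (median -0.37), whereas 4 of 5 without one lay above 0 (median 0.51). Neither group held a gene that passed the test, and the difference between the kinds was not tested.

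The genes of smallest p that were higher in deficient pools were MRPS27, MRPS35, MRPS28 and MRPL2. MRPS27, a small subunit protein of the pentatricopeptide repeat family of RNA-binding proteins, stood at 9.50, 16.5, 7.06, 15.2 and 7.74 CPM in deficient pools A1, A2, A3, B2 and B4. The normal pools ran from 3.07 through a median of 7.12 to 8.22 CPM. Deficient A1, A2 and B2 lay above every normal pool, and A3 and B4 within their range. The log2 difference was 0.98 (SE 0.35, edgeR adjusted p = 0.874).

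MRPS35, another small subunit protein without a bacterial counterpart, stood at 53.7, 37.3, 28.5, 16.1 and 69.3 CPM in the same deficient pools, and at 16.6 to 28.9 CPM with a median of 25.4 in normal pools. It was highest in deficient B4 and A1 and lowest in deficient B2, so the deficient pools lay on both sides of the normal range. Its log2 difference was 0.86 (SE 0.33, edgeR adjusted p = 0.903). For MRPS28 the deficient pools averaged 7.20 ± 2.68 CPM and the normal pools 5.51 ± 1.97 CPM, a log2 difference of 0.64 (SE 0.39). It was 0.29 without deficient A2 and -0.25 among the pools titled B alone. MRPL2, which lines the catalytic centre of the large subunit, was near the limit of detection at 0.819 ± 0.510 and 0.400 ± 0.288 CPM.

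On the lower side were MRPL46, MRPS24, MRPL50 and MRPL36. MRPL46, a large subunit protein without a bacterial counterpart, stood at 18.2, 4.70, 17.7, 15.6 and 12.5 CPM in deficient pools A1, A2, A3, B2 and B4. The normal pools ran from 15.7 through a median of 23.9 to 36.1 CPM. Deficient A1 and A3 were inside the normal range and the other deficient pools below it, B2 only just. The log2 difference was -0.71 (SE 0.31, edgeR adjusted p = 0.903).

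MRPS24, which has a bacterial counterpart in the small subunit, stood at 1.35, 0.760, 7.54, 6.41 and 2.82 CPM in deficient pools and at 5.09 to 16.1 CPM, median 9.18, in normal pools. Deficient A1, A2 and B4 lay below the normal range. Its log2 difference was -1.23 (SE 0.54, edgeR adjusted p = 0.903). MRPL50 stood at 4.39 ± 2.07 and 8.41 ± 3.26 CPM, with a log2 difference of -0.87 (SE 0.41). MRPL36, a small protein with a bacterial counterpart, had the widest fitted difference, -2.01 (SE 0.96), from levels of 0.181 ± 0.178 and 0.770 ± 0.505 CPM.

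**Figure D3:**
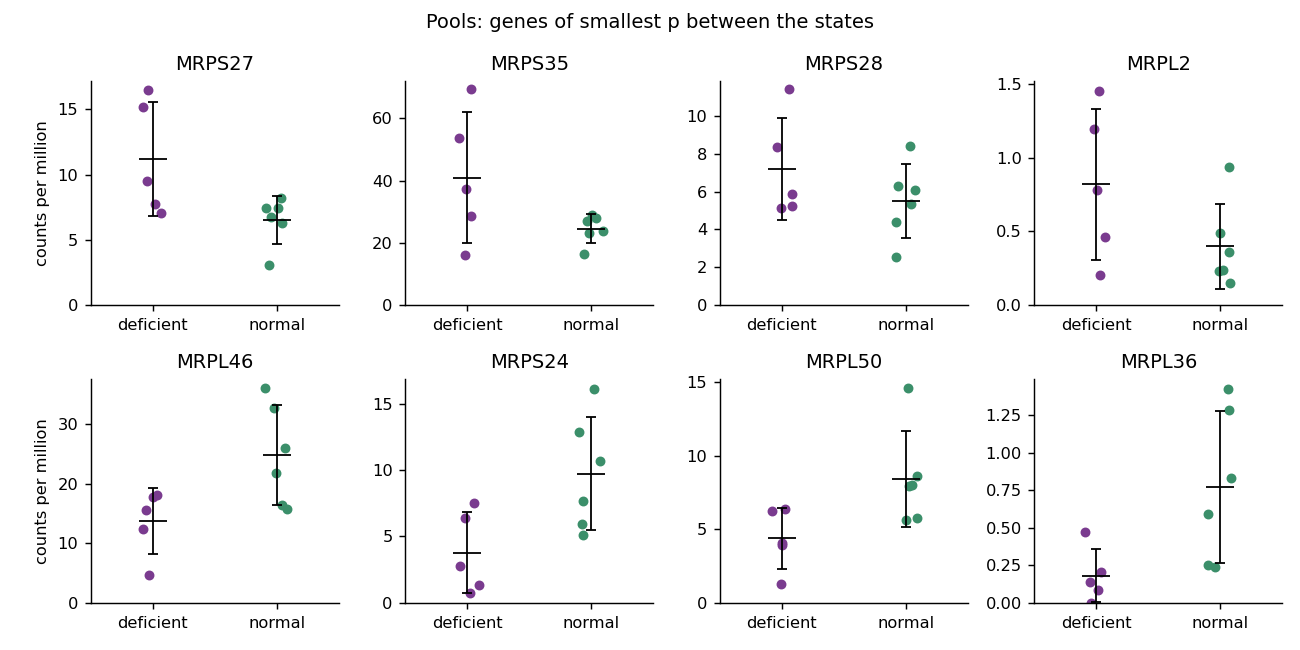
CPM (y axis, from 0, a scale per gene) of the 4 higher and the 4 lower genes of smallest p in deficient and normal pools, 1 point per pool with the mean and SD. Deficient and normal points overlap for each of the 8 genes, MRPS35 being the most spread among deficient pools, from 16.1 to 69.3 CPM.

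MRPS14, MRPS30, MRPS10 and MRPL3 had the narrowest limits of the 57 genes on a difference between pools. For MRPL3, mutated in a human mitochondrial cardiomyopathy, the log2 difference was 0.01 and the range of 2 SE on each side ran from -0.41 to 0.43. For MRPS30 it was -0.01, with a range from -0.37 to 0.35. For MRPS14 the deficient pools averaged 105 ± 11.3 CPM and the normal pools 140 ± 20.5 CPM, a log2 difference of -0.26 with a range from -0.58 to 0.07. For MRPS10, which has a bacterial counterpart, it was -0.16, with a range from -0.55 to 0.23, and for MRPL13, the most abundant of the genes, 0.25, with a range from -0.20 to 0.69. A difference of 1 on the log2 scale lay outside each of these ranges. For MRPL44, an RNase III-like protein mutated in a human cardiomyopathy, the difference was -0.09 (SE 0.26), for MRPL32, which is cut by the mitochondrial m-AAA protease before assembly, -0.20 (SE 0.31) and for MRPL11 -0.42 (SE 0.42).

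In single oocytes no gene of either subunit passed the test between the states. Oocytes of 1 state whose titles begin with the same number were summed, giving 4 deficient and 3 normal sums of 2481027 to 9105127 counts. Of 58 genes tested (36 MRPL and 22 MRPS), 0 were called by edgeR, against 0% of the 11964 genes tested, and 0 by DESeq2 or limma-voom. At an unadjusted p under 0.05 there were 0 of the 58, against 1.93% of all genes tested. CPM of the states did not overlap for 0 of the 58 and for 3.73% of all genes tested. Whether the 58 differ from other genes in this was not tested.

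The fitted differences of the sums were centred close to 0. The median was -0.03 for MRPL genes and -0.02 for MRPS genes, and 32 of the 58 genes (55.2%) lay below 0, against 50.3% of all genes tested. The median for MRPL genes was -0.15 without deficient sum 1, -0.11 without deficient sum 2, 0.04 without deficient sum 4, 0.02 without normal sum 2, -0.01 without normal sum 3 and -0.06 without normal sum 4. For MRPS genes it ran from -0.07 without normal sum 2 to 0.02 without normal sum 4. The table's columns carry 1 of 2 dates, and sum 4 of each state holds oocytes of both, the other sums of 1 date. The fits by date took each oocyte as a sample, so oocytes of a possible shared source count as separate replicates there. Among oocytes of 17 September 23 of 33 genes tested lay below 0, with medians of -0.20 (MRPL) and -0.18 (MRPS). Among those of 22 September 14 of 30 did, with medians of 0.12 and 0.00, so the lower side was not shared by both dates.

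The genes of smallest p in the sums were other genes than in the pools, with the exception of MRPS35. MRPS25 stood at 5.57, 10.5, 0.340 and 0.980 CPM in deficient sums 1 to 4 and at 1.91, 0.752 and 1.65 CPM in normal sums 2 to 4. Deficient sums 1 and 2 were high and the other two lay below or among the normal sums. The log2 difference was 1.5 (SE 1.01, edgeR adjusted p = 1.0), and limma-voom gave -0.38. Without deficient sum 2 it was 0.30. MRPS35 stood at 2.09, 10.5, 3.74 and 4.04 CPM against 1.70, 1.38 and 4.83 CPM, a log2 difference of 0.88 (SE 0.71) that rested largely on deficient sum 2, without which it was 0.12 (1.47 without normal sum 4).

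MRPL18 (0.52, SE 0.36) and MRPS5 (0.44, SE 0.42), both with bacterial counterparts, completed the higher side. Among the oocytes of 17 September alone, each taken as a sample, the difference of MRPS5 was -0.17. Without normal sum 2 it was 0.18. On the lower side, MRPS21 stood at 0.697, 2.02, 2.38 and 5.51 CPM in deficient sums and 10.8, 1.75 and 4.39 CPM in normal sums. Normal sum 2 alone was above the deficient sums. The log2 differences were -1.20 (SE 0.69) for MRPS21, -0.62 (SE 0.36) for MRPS6, -1.06 (SE 0.67) for MRPL48 and -0.54 (SE 0.38) for MRPL16. Without normal sum 2 they were -0.35 for MRPS21 and -0.40 for MRPL48, and without deficient sum 1 that of MRPL16 was -0.34.

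**Figure D4:**
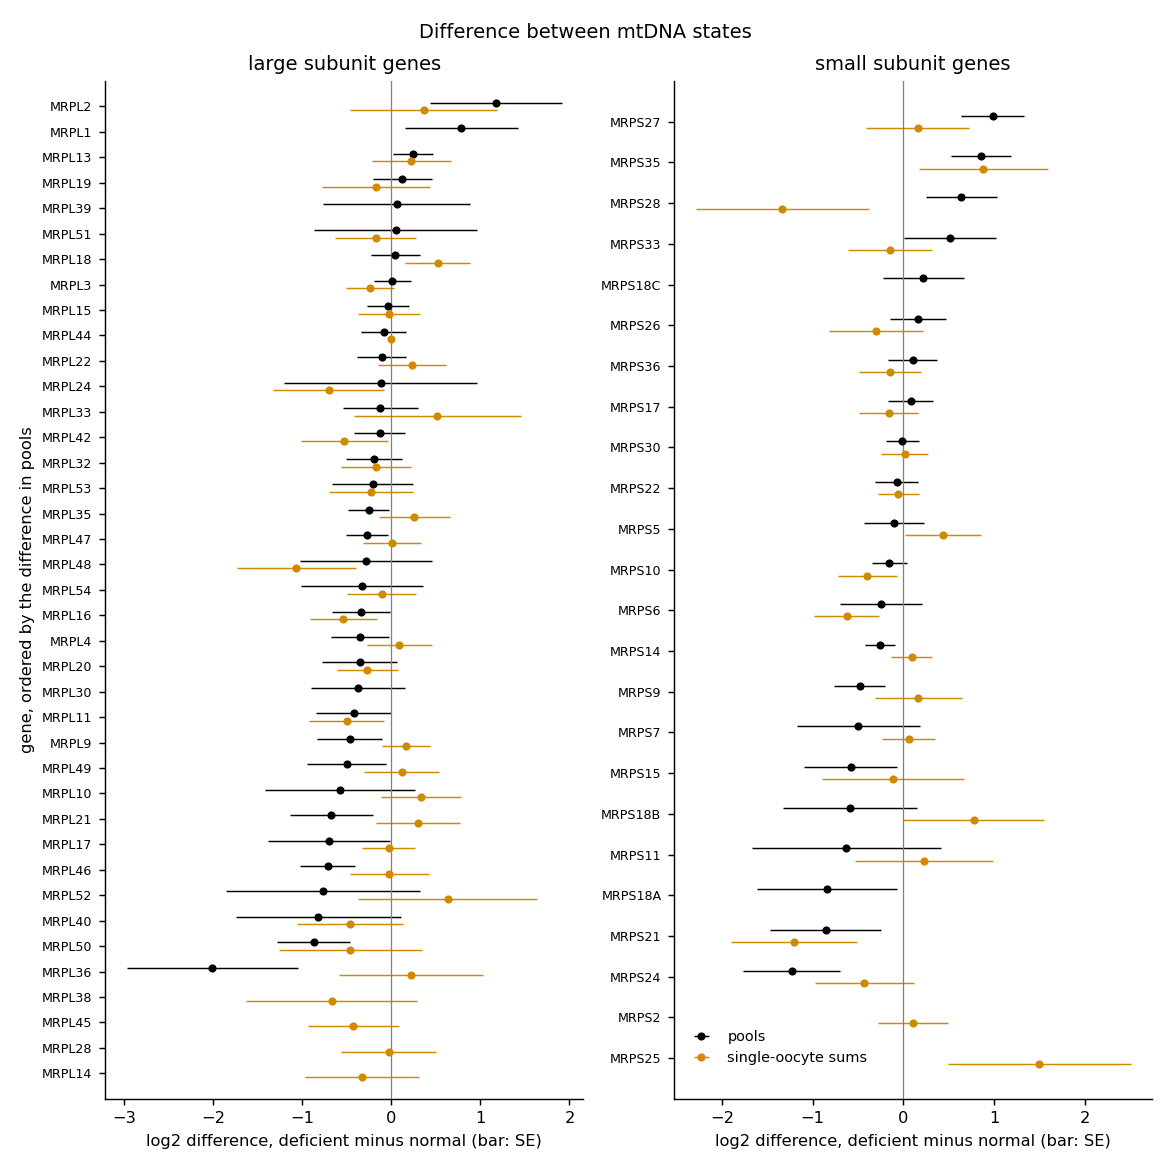
Fitted log2 difference (x axis, deficient minus normal, bar 1 SE) of each tested gene in pools (black) and in sums of single oocytes (orange), with MRPL genes left and MRPS genes right in the order of the difference in pools. The pool values lie below 0 for 41 of 57 genes and those of the sums for 32 of 58; MRPL44 has no bar in the sums because its SE cannot be had from a difference of about 0.

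No gene passed the test of whether the difference between the states depends on the library type. In a fit of the 11 pools and 7 sums together, the interaction of state and library type was called for 0 of 65 genes by edgeR, against 0% of the 17643 genes tested, and for 0 by DESeq2. At an unadjusted p under 0.05 there was 1 of the 65, against 5.32% of all genes tested. That gene was MRPL1, with a fitted interaction of 4.22 (SE 1.70, edgeR adjusted p = 0.886). The interaction was 1.26 without normal sum 2 and 8.64 without deficient sum 4. Its value rests on few counts: the deficient sums had 0, 0, 0 and 0.368 CPM and the normal sums 3.40, 0.251 and 0 CPM. MRPS18A came next (edgeR adjusted p = 0.904), with a count in 1 of the 7 sums. Its fitted interaction was -5.59, and -0.86 without deficient sum 4.

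The library types differed for most of the genes. Of 65 genes tested, 48 passed the test between pools and sums of single oocytes (73.8%), against 67.1% of all 17643 genes tested, so the share was near that of all genes. Kit, extraction, number of oocytes and depth all differed between the library types and cannot be told apart. By edgeR's TMM scaling 21 of the 48 were higher in pools and 27 in single oocytes, against 31.9% and 35.3% of all genes tested. The split was 16 and 35 by DESeq2 and 18 and 30 with upper-quartile scaling. Of all 17643 genes tested, 5624 were called higher in pools and 6222 in single oocytes by TMM, 4654 and 7640 by DESeq2, and 5145 and 6724 with upper-quartile scaling, so the split of all genes moved the same way.

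In the fit of all pools and sums, the median of MRPL genes lay below that of all genes and the median of MRPS genes above it. The median log2 difference, pools minus single oocytes, was -0.96 over 40 MRPL genes and 0.11 over 25 MRPS genes, with -0.17 over all genes tested. Relative to all genes these were -0.79 and 0.28. The value for MRPS genes was 0.07 without deficient pool B4 and 0.10 in deficient libraries alone, and it fell below 0 in normal libraries alone (-0.02) and with each oocyte as a sample (-0.11). The value for MRPL genes was below 0 in each of these fits. Scaling by DESeq2 moved the median of all genes to -0.66 and those of the subunits to -1.46 and -0.37. Before that of all genes is subtracted, the median of MRPS genes was also below 0 without deficient pool B4 (-0.09), without normal sum 2 (-0.01), with upper-quartile scaling (-0.10), with each oocyte as a sample (-0.07) and, just below 0, without an expression filter. Counting MRPS30 and MRPS18A in the large subunit brought its median to -0.74. That of the other MRPS genes, MRPS36 still among them, came to -0.17, the value of all genes. Among MRPL genes 13 were called higher in pools and 20 in single oocytes, and among MRPS genes 8 and 7. The difference between the subunits was not tested.

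**Figure D5:**
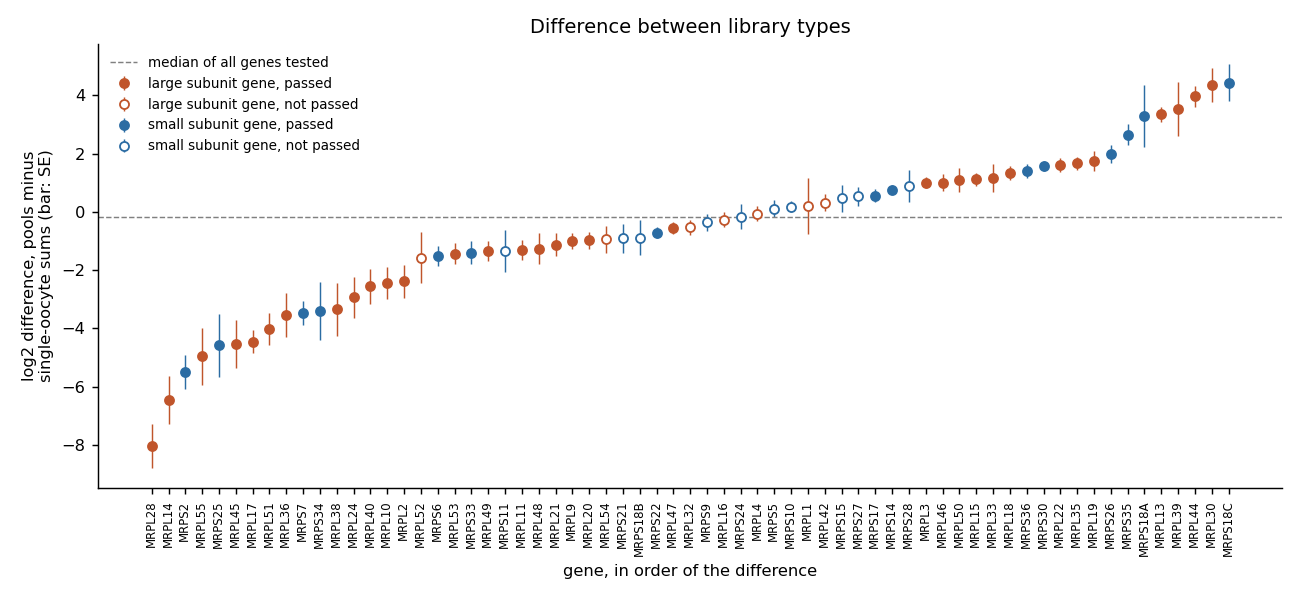
Fitted log2 difference (y axis, pools minus sums of single oocytes, bar 1 SE) of the 65 tested genes in order, coloured by the subunit in the symbol and filled where the gene passed the test. The dashed line marks the median of all genes tested, -0.17; values run from -8.03 for MRPL28 to 4.44 for MRPS18C.

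Among called genes that averaged at least 5 CPM in either library type, the largest differences on the side of the pools were those of MRPS18C, MRPL30, MRPL44, MRPL13, MRPS35 and MRPS26. MRPS18C, which has a bacterial counterpart and is a paralog of MRPS18A, stood at 9.40 ± 4.35 CPM in pools and was detected in 6 of 29 single oocytes at a mean of 0.321 CPM. The log2 difference was 4.44 (SE 0.63, edgeR adjusted p = 1.05e-06). MRPL30 averaged 16.5 ± 11 CPM over pools and 0.596 ± 0.951 CPM over single oocytes, a log2 difference of 4.35 (SE 0.57). MRPL44 stood at 26 to 56.3 CPM in pools and at 0 to 7.45 CPM in single oocytes (log2 difference 3.96, SE 0.35). The CPM of single oocytes are lowered by LOC102158401 and RN18S, which took 75.4% of the counts of S28, the highest oocyte for MRPL44.

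MRPL13 stood at 96.4 to 198 CPM in pools and at most at 22 CPM in a single oocyte (3.35, SE 0.25). MRPS35 (2.64, SE 0.36) and MRPS26 (1.99, SE 0.30), both without bacterial counterparts, followed. Of this side, MRPS18C and MRPS26 overlap other genes in the Sscrofa11.1 RefSeq annotation (HELQ and ABRAXAS1, and GNRH2).

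By the same limit, the largest differences on the side of the single oocytes were those of MRPS2, MRPL45, MRPL17, MRPL51, MRPS7 and MRPL24. MRPS2, a small subunit protein with a bacterial counterpart, had a count in all 29 single oocytes, at 1.30 to 26.3 CPM with a median of 12.2, but stood at 0 to 1.67 CPM in pools. The log2 difference was -5.49 (SE 0.58, edgeR adjusted p = 8.6e-09). MRPL45, which lies at the exit of the ribosome's tunnel toward the inner membrane, stood at 5.57 ± 4.16 CPM in single oocytes and 0.497 ± 0.902 CPM in pools (-4.52, SE 0.82). MRPL17 stood at 22.2 ± 8.11 and 1.59 ± 1.16 CPM, and its lowest oocyte, at 9.23 CPM, was above its highest pool, at 4.02 CPM (-4.45, SE 0.38).

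MRPL51 (-4.03, SE 0.54), MRPS7 (-3.48, SE 0.42) and MRPL24 (-2.93, SE 0.70) completed this side. MRPL17 overlaps a long non-coding RNA gene in the RefSeq annotation, and MRPS7 overlaps 2 protein-coding genes there, MIF4GD and GGA3. The called genes under 5 CPM in both library types included some with wider differences than the last of those named, given here after their values were seen. On the side of pools these were MRPL39 (3.54) and MRPS18A (3.29). On the side of single oocytes they were MRPL55 (-4.96), MRPS25 (-4.57), MRPL36 (-3.54), MRPS34 (-3.39), MRPL38 (-3.35), MRPL28 and MRPL14. MRPL28 and MRPL14 had 6 and 26 counts over the 11 pools and 191 counts each over the 29 oocytes. Their log2 differences were -8.03 (SE 0.75) and -6.45 (SE 0.82). In the RefSeq annotation MRPL28 overlaps TMEM8A, MRPL14 overlaps TMEM63B and MRPS25 overlaps NR2C2.

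The calls between library types held in most refits. Of the 48, 43 kept their call and direction by DESeq2, 45 with upper-quartile scaling and 42 in every fit that left out 1 library or sum. In the deficient and in the normal libraries fitted alone, 30 genes were called in both, and all 30 had 1 direction. The direction depended on the scaling for MRPL1, MRPL42, MRPS5, MRPS10 and MRPS15, none of which passed the test. The 12 genes named for this comparison passed it under each of 25 alternatives.

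The spread among single oocytes was measured for the 15 genes with a mean of at least 20 counts per oocyte. Their median coefficient of variation (SD of CPM over its mean) was 47.7%. For all 4678 genes with a mean of at least 20 counts per oocyte it was 42.7%. Those genes share only this lower limit with the 15 and were not matched to them in counts. The medians therefore cannot show whether the 15 vary more than other genes of their level. Among the 15, the coefficient was highest for MRPL15 (68.1%), MRPS10 (57.6%), MRPL20 (54.2%) and MRPS7 (51.1%), and lowest for MRPS22 (32.6%). MRPL15 ran from 2.51 to 60.0 CPM over the oocytes with a median of 12.9. Counting error is part of this spread, and no test was made.

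The other genes of mitochondrial translation and ribosome assembly also gave no call between the states. From a list of 56 symbols, 44 had a row. In pools 0 of 35 tested were called by edgeR, against 0% of all genes tested, and the median log2 difference was -0.05. Of the 35, 20 (57.1%) lay below 0, against 50.2% of all genes tested. In the sums 0 of 30 were called, against 0% of all genes tested, and 16 (53.3%) lay below 0, against 50.3%. An edgeR unadjusted p under 0.05 was found for 2 of the 35 in pools, against 5.36% of all genes tested. In the sums it was found for 0 of the 30, against 1.93%. Between library types 25 of 40 were called (62.5%), 10 higher in pools and 15 in single oocytes, against 67.1% of all genes tested.

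The 2 genes of smallest p in pools are known for steps at the start and the end of translation. MTFMT, which formylates the initiator methionyl-tRNA, stood at 14.8, 15.9, 28, 30.4 and 35.3 CPM in deficient pools A1, A2, A3, B2 and B4 and at 31 to 58.2 CPM, median 41.7, in normal pools. Deficient B4 alone reached into the normal range. The log2 difference was -0.72 (SE 0.30, edgeR adjusted p = 0.903). MRRF, the ribosome recycling factor, stood at 9.28 ± 2.49 and 17.2 ± 7.55 CPM (-0.71, SE 0.30).

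In the sums of single oocytes LRPPRC, which stabilises mitochondrial mRNAs, differed by 0.78 (SE 0.45) and the initiation factor MTIF2 by -0.73 (SE 0.43). In pools the same genes differed by 0.44 (SE 0.28) and -0.08 (SE 0.41). TUFM, the mitochondrial elongation factor Tu, differed by -1.04 (SE 0.60) in pools and 0.33 (SE 0.35) in the sums, and its interaction had an edgeR adjusted p of 0.915. The remaining named genes encode ribosomal proteins outside the MRPL and MRPS symbols. DAP3 of the small subunit, which binds GTP, was near the limit of detection in pools at 0.700 ± 0.321 CPM. For PTCD3, a small subunit pentatricopeptide repeat protein, the deficient pools averaged 25.3 ± 9.85 CPM and the normal pools 25.5 ± 10.8 CPM. GADD45GIP1 of the large subunit averaged 1.09 ± 1.10 CPM over pools and 5.64 ± 5.22 CPM over single oocytes.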

How the data were processed

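The authors deposited raw counts per gene in 2 tables, 1 for pools and 1 for single oocytes, with no normalization, per the file headers and the values. The tools named in the submitters' processing notes are TopHat2 2.0.14, FastQC, edgeR and Trim Galore, with build Sscrofa10.2. For counting, the program, annotation and strand setting were not given in the sources used here. One row per table that names no gene (1.05% to 4.75% of the counts of pools, 0.648% to 8.15% of single oocytes) was left out.

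Counts were tested in R 4.3.3 with edgeR 4.0.16 (filterByExpr, TMM scaling, quasi-likelihood F test, Benjamini-Hochberg adjustment over all genes tested, threshold 0.05). The SE of a log2 difference is its size divided by the root of F. DESeq2 1.42.0 and limma-voom (limma 3.58.1) were alternatives, with others on filter, scaling, libraries, dates, pairing and subunit class. The code was tested on simulated data. For single oocytes the counts were summed by state and title number. Same-numbered sums of numbers 2, 3 and 4 deviated together (correlations of 0.143, 0.220 and 0.165), so a fit with the number as a block was also made. No pair of libraries in a group agreed within sampling noise (smallest chi-square per degree of freedom 38.3 in pools and 4.28 in single oocytes).

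The genes and lists were chosen with earlier results of these data known. Named genes are those of smallest p or largest difference in each comparison, of highest CPM, of largest variation or with 0 counts, and a fixed set, of which MRPS12 and MRPS16 have no row. Of the 69 symbols 68 matched RefSeq's Sscrofa11.1 gene table, used for names and overlaps only. Levels per transcript length and promoter sequences were not analysed here.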

Additional observations from a re-analysis of the deposited data

Results flagged for a closer look

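In 129 groups of 4 to 10 values searched (CPM of the named genes and summed levels, by pool or by sum of single oocytes), 15 had a highest value far from the others. Chance flags about 1 group in 20, a rate that does not hold for the 4 groups whose other values are all 0, where any count stands apart. Deficient pool B2 held 5 of them: 881 CPM summed over MRPL genes (other deficient pools 508 to 608), 37.7 CPM for MRPL30 (1.54 to 11.6), 14 CPM for MRPL11 (2.56 to 5.17), 0.547 CPM for MRPL45 (0 to 0.0931) and 0.117 CPM for MRPL12 (0 in the others). In deficient pool B4, MRPS22 was at 50.9 CPM (22.5 to 30.3 in the others) and MRPS5 at 25.1 CPM (7.19 to 9.36). Among normal pools, B2 was high for MRPL47 (83.6 CPM, others 48 to 57.0) and MRPL45 (3.09 CPM, others 0 to 0.735), and A4 for MRPL50 (14.6 CPM, others 5.60 to 8.63).

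Among the deficient sums of single oocytes, sum 4 was high for MRPL15 (31 CPM, others 11.3 to 12.5). It was also the only deficient sum with a count for MRPL1 (0.368 CPM), MRPL12 (0.245 CPM) and MRPS18A (0.490 CPM). Sum 2 was high for MRPL47 (83.4 CPM, others 42.8 to 48.1). Deficient sum 4 holds 7 of the 14 deficient oocytes and the most counts of the 4, and it alone of these sums mixes oocytes of both dates.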

How the results depend on the processing

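The number of the 69 genes called between the states, or for the interaction, was 0 under each alternative run. Over all genes, the count between pools was 28 by DESeq2 in place of 0. Between single oocytes it was 2 by DESeq2, 4 without an expression filter and 1 with each oocyte as a sample, in place of 0. Among oocytes of 17 September alone, each again taken as a sample, it was 2. For the interaction it was 1 by DESeq2 and 3 with each oocyte as a sample, in place of 0. Leaving out 1 library or sum at a time left these 3 counts at 0. With the title number as a replicate block on 6 sums, 2 genes were called in single oocytes (0 for the same sums without the block, an alternative chosen after seeing the data), neither of them a mitochondrial ribosomal protein gene, and the block changed no other call. Same-titled pools A2, A3, B2 and B4 had correlations of -0.105, 0.127, 0.476 and 0.078, and 3 of the 4 correlated best with their own number. Not every correlation was over 0.1, so the titles of pools were not taken as pairs. A replicate block on these 8 pools called 0 genes. It put the median of MRPL genes relative to all genes at -0.41, against -0.29 for the same 8 pools without it. Before the median of all genes is subtracted these were -0.51 and -0.27. The median of all genes was itself -0.10 with the block (15468 genes tested) and 0.01 without it (13338 genes tested). In the 6 sums the block put the median of MRPL genes relative to all genes at -0.10, against -0.14 without it.

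Of the named genes, 3 changed sign under 1 alternative each. These were MRPS28 (-0.25 in pools titled B alone), MRPS25 (-0.38 by limma-voom) and MRPS5 (-0.17 among oocytes of 17 September, each a sample). The cause was not tested. Between library types, DESeq2 put the medians at -1.46 (MRPL) and -0.37 (MRPS), and the medians without 1 library or sum were -1.12 to -0.86 and -0.09 to 0.17. The summed MRPS level of deficient and normal pools was 419 and 468 CPM without MRPS30 and MRPS18A, since 2 genes leave the sum, and MRPS36 stayed in it. Without LOC102158401 and RN18S, the MRPL and MRPS sums were 1075 and 838 CPM in deficient and 1087 and 885 CPM in normal oocytes, since the total is smaller. Depth limits the single oocytes, where 15 genes averaged at least 20 counts.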
